A study of Mus musculus with 6 samples.

Results

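Heat shock proteins were described in the cortex of mice 10 days after microglia depletion through 10 genes that were chosen by name from the table of gene expression: Hspa1a, Hspa1b, Hspa5, Hspa8, Hspb1, Hsp90aa1, Hsp90ab1, Hspd1, Hsph1 and Dnajb1. These are 10 of 23366 gene symbols in the table, and all 10 passed the filter on low values, a minimum average of 0.5 FPKM, which left 14385 genes for the test. FPKM is a count of sequenced fragments scaled to transcript length and library size, so that levels can be compared between genes of different length. The 3 depleted mice, A4, A5 and A6, carried CX3CR1-CreERT2+/- and iDTR+/-, a diphtheria toxin receptor that is read only after Cre has cut out a stop sequence. The 3 littermate control mice, A1, A2 and A3, carried CX3CR1-CreERT2+/- without the receptor, and the methods describe both genotypes as age- and sex-matched, without stating the age, and as injected with tamoxifen to switch on the Cre. Diphtheria toxin then removed microglia in the depleted mice, and by d10 microglia had come back. The CX3CR1 promoter drives Cre in microglia but also in other cells that express CX3CR1. The methods do not state whether the control mice were given toxin, and effects of toxin and of depletion cannot be told apart. Each mouse gave 1 library of RNA from cortex, and no litter, batch or date was given.

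Heat shock proteins are chaperones, which bind unfolded proteins and help them fold or pass them on for degradation. Hsp70 proteins hold a stretch of the client under the use of ATP, J-domain proteins bring the client and start that use, nucleotide exchange factors such as Hsp110 end it, and Hsp90 takes over clients that are nearly folded. Some members are present in every cell at high levels, and in neurons they help to keep synaptic proteins folded, while others are induced by stress through HSF1, the heat shock transcription factor.

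The promoter sequences of the members show which of them hold the letters that HSF1 and the stress factors of the endoplasmic reticulum (ER) are known to bind, and they are printed for that reason. RefSeq promoters of 300 bases (250 before the start and 50 after, GRCm38.p6) were at hand for 7 of the 10 members, and not for Hspa8, Hsp90aa1 and Hsp90ab1. A heat shock element is built of GAA units in alternating direction. The letters searched on both strands were a pair of units, GAANNTTC or TTCNNGAA, and a run of 3, GAANNTTCNNGAA or TTCNNGAANNTTC, where each run also holds a pair. A pair was found in 5 of the 7 members and in 15.1% of all 32851 promoters. A run of 3 was found in 2 of the 7, Hspd1 and Hsph1, and in 0.603% of all promoters. Members were counted by gene over 10 windows, as Hspd1, Hsph1 and Dnajb1 have 2 each, while the shares are per promoter. These are unlike measures, and the near-identical Hspa1a and Hspa1b are counted separately. The ER stress response element, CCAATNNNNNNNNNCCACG, was found in Hspa5 and in 0.119% of all promoters. No letters of these 3 kinds were found in the windows of Dnajb1. The 150 bases before the start of Hspa1a (chr17:34972157-34972306, minus strand) and of Hspb1 (chr5:135887769-135887918, plus strand) lie outside the annotated exons of the members and of Hspe1. Exons of other genes were not checked there. For Hspd1, Hsph1 and Hspa5 a short window is given. That of Hspd1 (chr1:55088054-55088081, minus strand) holds an unbroken run of 4 units within an annotated Hspd1 exon. That of Hsph1 (chr5:149636283-149636305, minus strand) holds a run of 3 units, also within an exon and after the start in both of its promoter windows. That of Hspa5 (chr2:34772020-34772048, plus strand) holds the ER stress letters, which lie before the start and within an annotated Hspa5 exon. Capitals mark the matching letters, read 5′ to 3′ on the strand of the gene. A match is a description of the letters and was not tested for binding.
Hspa1a: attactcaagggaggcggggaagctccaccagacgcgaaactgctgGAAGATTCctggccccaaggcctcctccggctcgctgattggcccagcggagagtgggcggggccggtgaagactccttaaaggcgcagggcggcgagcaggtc
Hspb1: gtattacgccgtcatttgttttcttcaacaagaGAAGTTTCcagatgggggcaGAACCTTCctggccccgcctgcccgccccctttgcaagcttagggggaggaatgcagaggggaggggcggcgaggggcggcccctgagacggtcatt
Hspd1: gggccTTCCGGAAGGTTCTAGAAcggac
Hsph1: gcagaTTCTGGAAAGTTCtcctc
Hspa5: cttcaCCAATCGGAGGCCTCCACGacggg
The promoter windows of Hspa1a and Hspa1b were equal at 296 of 300 bases, so the sequence of Hspa1a stands for both.

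The libraries differed in depth, and mouse A4 stood apart from the others. The spacing of low FPKM values gave about 14.8, 20.3 and 18.3 M fragments for A1, A2 and A3, and 13.7, 7.12 and 11.2 M for A4, A5 and A6. The fit behind these values ended at a fragment length of 0 or 20 bases, shorter than the 75 bp reads, so the depths are rough. Limma array weights, in which a low weight marks a library far from the fit, were 0.304 for A4 and at least 0.685 for the other mice. Xist was at 4.74 FPKM in control mouse A3 against 30.9 to 46.7 in the other 5 mice, and Y-linked genes summed to 5.56 FPKM in A4 against at most 0.16, although the methods call the groups sex-matched. Results are therefore also given without A4. Type I interferon genes were highest in A4 as well. The median of 10 such genes stood 3.69 on the log2 scale above the control mean in A4, 0.98 in A5 and 1.04 in A6. No marker of the lists for neurons, astrocytes, oligodendrocytes, microglia, endothelial cells and choroid plexus was at 0 in every mouse. The 8 neuron markers summed to 2692.8 to 3085.9 FPKM in control and 2653.3 to 2874.8 FPKM in depleted mice. Of the microglia markers, Cx3cr1 was at 3.99 to 4.74 FPKM in control and 3.94 to 4.91 FPKM in depleted mice, Aif1 was higher in every depleted mouse (5.88 to 6.49 against 7.34 to 14.3 FPKM), and P2ry12 (8.50 to 10.2 against 6.45 to 7.91 FPKM) and Fcrls (8.19 to 13.3 against 3.83 to 7.91 FPKM) were lower. Choroid plexus markers summed to 169.6 to 327.0 FPKM in control and 47.0 to 72.0 FPKM in depleted mice, and oligodendrocyte markers to 2961.8 to 3223.8 and 2591.4 to 2681.2 FPKM. Endothelial markers summed to 49.3 to 56.1 FPKM in control and 57.9 to 63.7 FPKM in depleted mice, and astrocyte markers to 1179.9 to 1320.7 and 1186.3 to 1294.7 FPKM. Within the astrocyte markers, Gfap was higher in every depleted mouse (64.5 to 88.3 FPKM in control against 108.5 to 300.3 FPKM), and Aldoc and Gja1 were lower in every depleted mouse. These 3 genes and the microglia markers named here were chosen after their values were seen. The part of these markers, of depth and of A4 in the results for heat shock genes was not tested. In bulk tissue, fewer cells of a type and less RNA per cell cannot be told apart.

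No heat shock member passed the test between depleted and control mice. Limma on log2(FPKM + 1), with Benjamini-Hochberg adjustment over all 14385 genes and the threshold of 0.1 that the study used, called 0 of the 10 members, against 4 genes, or 0.0278%, of the whole table tested. At an unadjusted p under 0.05, limma had 4 of 10 members (Hspb1, Hsp90aa1 and Hsp90ab1 higher, Hspa1a lower), against 10.5% of all genes. All 3 depleted mice exceeded all 3 controls in 2 members, Hsp90aa1 and Hsp90ab1, against 8.21% of all genes, and lay below them in 1, Hspa1a, against 9.38%. The median log2 fold change of the members was 0.08, and that of all genes tested was -0.0085. Of 10 type I interferon genes, limma also called 0 at the threshold of 0.1. All 3 depleted mice exceeded all 3 controls in 10 of these, at a median log2 fold change of 1.86. A gene that limma did not call here is thus not shown to be unchanged. For single genes an exact permutation test, two-sided, was added, whose smallest p with 3 against 3 mice is 0.1. Where values are listed by mouse, the controls stand in the order A1, A2, A3 and the depleted mice in the order A4, A5, A6. Fold changes are given on the log2(FPKM + 1) scale, which understates the change of genes with low FPKM.

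**Figure D1:**
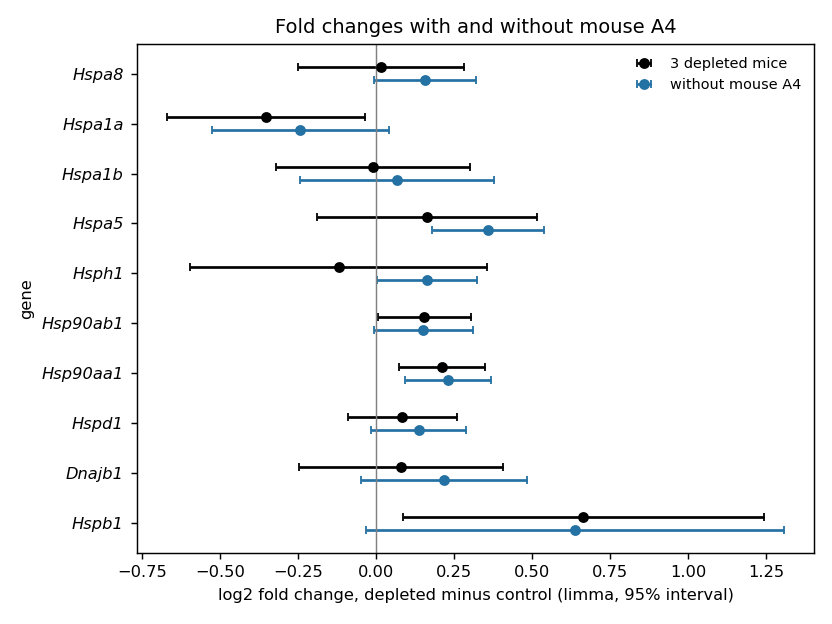
Log2 fold change (depleted minus control, log2(FPKM + 1)) of each member, with its 95% confidence interval from limma, for all 6 mice and without A4. Hspb1 has the largest value, 0.66, and the widest interval, and Hsp90aa1, at 0.21, has the narrowest. Without A4, Hsph1 moves from -0.12 to 0.16 and Hspa5 from 0.16 to 0.36.

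The levels of the members spanned a wide range. Hspa8, the Hsp70 that every cell makes, was the most abundant at a mean of 1037.7 FPKM over the 6 mice and ranked 15 of all genes tested. It was followed by the cytosolic Hsp90 genes, Hsp90ab1 at 700.1 and Hsp90aa1 at 556.2 FPKM. The next levels were those of Hspa5 (134.8 FPKM), Hsph1 (102.8 FPKM), Hspd1 (84.3 FPKM) and Dnajb1 (30.6 FPKM). Hspb1, Hspa1b and Hspa1a, which are known as stress-inducible, were at the bottom at 7.50, 5.63 and 5.08 FPKM. Hsp90aa1, which is also stress-responsive, was near the top. The ranges of neighbours in this order overlapped over the mice for Hspa5 and Hsph1, Hsph1 and Hspd1, Hspb1 and Hspa1b, and Hspa1b and Hspa1a. Within single mice, Hspa5 was above Hsph1 in all 6. The order of each of the other overlapping pairs held in 5 of the 6 mice and was not tested. All 10 members together made up 0.637%, 0.641% and 0.652% of the summed FPKM in the controls, and 0.617% in A4, 0.730% in A5 and 0.729% in A6. The shares of A5 and A6 were above those of every control mouse, and that of A4 was below them.

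**Figure D2:**
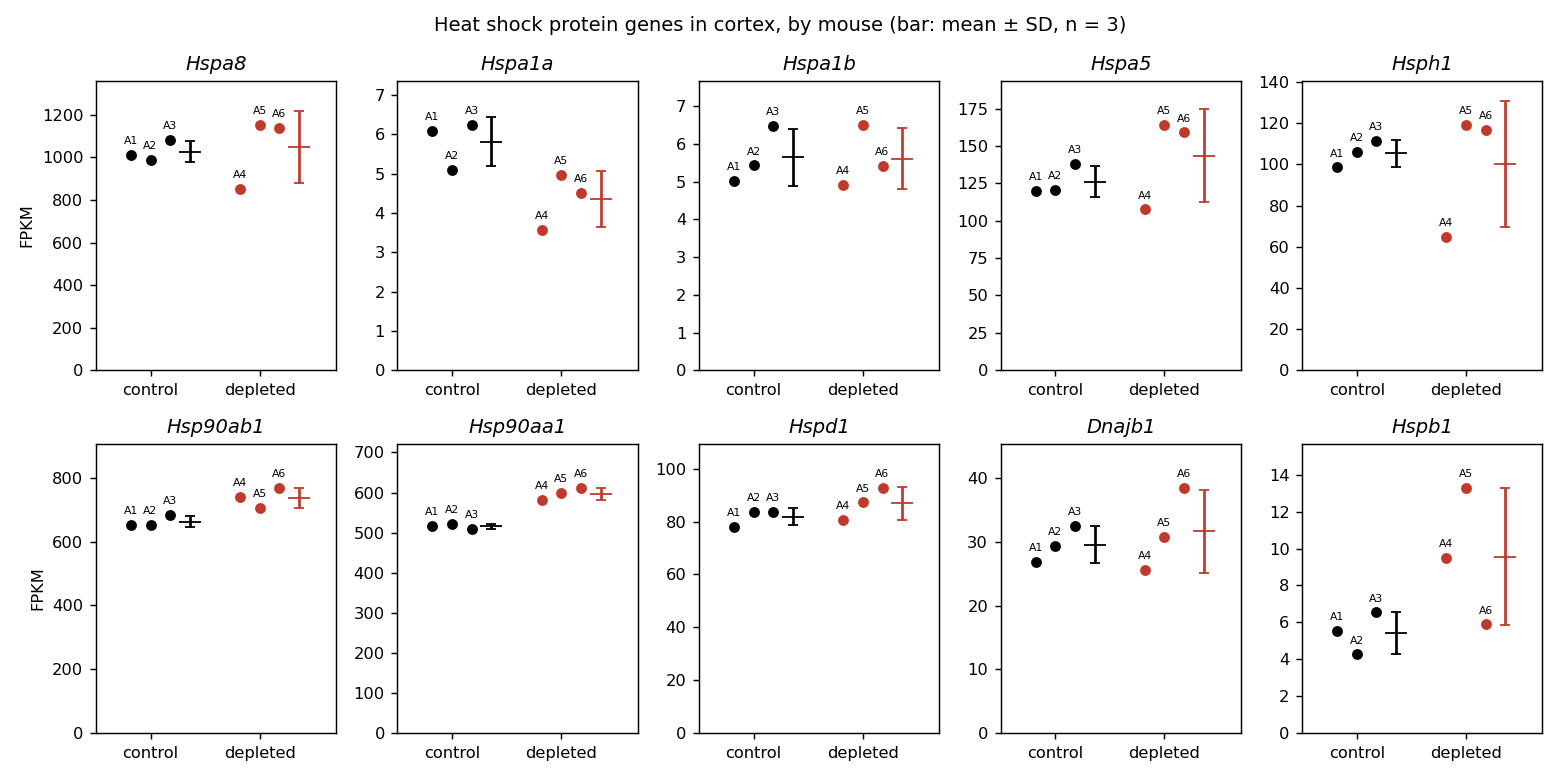
FPKM of each member in the 3 control and the 3 depleted mice, 1 point per mouse, with group means and SD. Hsp90aa1 and Hsp90ab1 are above the controls in every depleted mouse, and Hspa1a is below them in every depleted mouse. In Hspa5, Hspa8 and Hsph1, A4 lies under the controls while A5 and A6 lie over them.

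Among the Hsp70 genes, Hspa1a was lower in every depleted mouse while the groups overlapped in its near-identical copy Hspa1b, a difference between the copies that was not tested. Hspa1a was at 6.09, 5.09 and 6.23 FPKM in the controls, and 3.57, 4.97 and 4.51 FPKM in the depleted mice. Its mean was 5.80 ± 0.622 (SD, n = 3) in control and 4.35 ± 0.714 in depleted mice, and the groups did not overlap. The log2 fold change was -0.35 (SE 0.14) with limma p = 0.0337 and adjusted p = 0.443, and exact permutation p = 0.1. The adjusted p ran from 0.259 to 0.892 over the alternatives, and the log2 fold change was -0.20 without A3 and A4. Hspa1b was at 5.03, 5.43 and 6.48 FPKM in the controls and 4.92, 6.50 and 5.41 FPKM in the depleted mice, so that the groups overlapped, with a log2 fold change of -0.0091 (SE 0.14, limma adjusted p = 0.987). That value turned to 0.067 without A4, and the 95% interval with all mice was -0.32 to 0.30.

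Both genes are single-exon copies on chromosome 17, Hspa1a at 34969190 to 34972156 and Hspa1b at 34956436 to 34959238 (GENCODE M21, GRCm38), and reads could be split between them. Of all 75-base windows of Hspa1a, 52.7% were also in Hspa1b, and 55.8% of those of Hspa1b were in Hspa1a. The counting behind each gene was about 105 to 338 fragments per mouse in Hspa1a and 130 to 332 in Hspa1b, a counting error of 5.44 to 9.76%. Hspa1a took 54.8%, 48.4% and 49.0% of the summed pair in the controls and 42.0%, 43.3% and 45.5% in A4, A5 and A6. The sum of the pair was 11.1, 10.5 and 12.7 FPKM in the controls and 8.49, 11.5 and 9.92 FPKM in the depleted mice, and these groups overlapped. Its log2 fold change was -0.19 (SE 0.13, limma adjusted p = 0.620, exact permutation p = 0.3). The mean of the sum was 11.45 FPKM in control and 9.96 FPKM in depleted mice. A4 and A6 lay below every control in the sum, and A5 lay within the control range. How reads were split between the copies was not tested. Hspa1a also overlaps the gene Gm20481 on the opposite strand.

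In both Hspa8 and Hspa5, A4 was the lowest and A5 and A6 were the highest of the 6 mice. Hspa8 (chr9:40800984-40810087, plus strand) was at 1012.9, 988.5 and 1081.8 FPKM in the controls and 853.9, 1151.6 and 1137.9 FPKM in the depleted mice. The groups overlapped, and the log2 fold change was 0.016 (95% interval -0.25 to 0.28, limma adjusted p = 0.973), with the sign turned to -0.017 under quantile normalization and a value of 0.16 without A4. Of the windows of Hspa8, 32.8% were shared with other annotated genes, of which Gm15459 held the most, and 3 snoRNAs lie within its exons.

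Hspa5 (chr2:34771970-34777547, plus strand), which is BiP, the Hsp70 of the ER, was at 119.7, 120.5 and 138.1 FPKM in the controls and 107.6, 164.0 and 159.1 FPKM in the depleted mice. The depleted mice thus stood on both sides of the controls. The log2 fold change was 0.16 (SE 0.15, limma adjusted p = 0.726, exact permutation p = 0.4), and 0.36 without A4 (limma p = 0.00186, adjusted p = 0.187). That adjusted p was the lowest of any member over the alternatives. Its ER partner Hsp90b1, or Grp94, was at 134.3, 134.7 and 144.2 FPKM in the controls and 122.0, 166.3 and 164.3 FPKM in the depleted mice, again with A4 lowest and A5 and A6 highest. Hsp90b1 was named after its values were seen.

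Hsph1 and Dnajb1, which work with Hsp70, were each lowest in A4. Hsph1 (chr5:149614287-149636376, minus strand), an Hsp110 and nucleotide exchange factor, was at 98.5, 106.2 and 111.3 FPKM in the controls and 65.0, 119.1 and 116.9 FPKM in the depleted mice. A4 was far below all other mice, and A5 and A6 were above all controls. The log2 fold change was -0.12 (SE 0.21, limma adjusted p = 0.865, exact permutation p = 1.0) and turned to 0.16 without A4 (limma p = 0.0465, adjusted p = 0.374). Dnajb1 (chr8:83608193-83612653, plus strand), the J-domain partner of the inducible Hsp70, was at 26.8, 29.4 and 32.6 FPKM in the controls and 25.6, 30.8 and 38.5 FPKM in the depleted mice. These groups overlapped with and without A4, at a log2 fold change of 0.080 (SE 0.14, limma adjusted p = 0.871), or 0.22 without A4.

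The Hsp90 pair had higher values in every depleted mouse. Hsp90aa1 (chr12:110690605-110702728, minus strand), the stress-responsive cytosolic form, was at 515.6, 521.6 and 509.7 FPKM in the controls and 580.7, 598.0 and 611.7 FPKM in the depleted mice, a ratio of means of 1.16. The groups did not overlap and the spread was small, with a coefficient of variation of 1.16% in control and 2.61% in depleted mice. Its log2 fold change was 0.21 (SE 0.060, 95% interval 0.073 to 0.35) with limma p = 0.00754, adjusted p = 0.378 and exact permutation p = 0.1. Over the alternatives the adjusted p ran from 0.231 to 0.892. Without A4 the log2 fold change was 0.23. Hsp90ab1 (chr17:45567775-45573271, minus strand), the constitutive form, was at 651.9, 652.8 and 683.1 FPKM in the controls and 739.4, 704.6 and 768.8 FPKM in the depleted mice. Its log2 fold change was 0.15 (SE 0.065, limma p = 0.0443, adjusted p = 0.464, exact permutation p = 0.1), and the values were again apart. Summed, the pair was at 1167.5 to 1192.8 FPKM in control and 1302.6 to 1380.5 FPKM in depleted mice. In Hsp90aa1, 42.8% of windows were shared with other annotated genes, of which Gm12346 held the most, while in Hsp90ab1 it was 0.537%.

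Hspb1 (chr5:135887919-135889563, plus strand), or Hsp25, a small heat shock protein that keeps clients from clumping without ATP, had the widest spread of the members. It was at 5.54, 4.26 and 6.53 FPKM in the controls and 9.49, 13.3 and 5.88 FPKM in the depleted mice. A4 and A5 were above every control, and A6 lay within the control range. The mean was 5.44 ± 1.14 (SD, n = 3) in control and 9.55 ± 3.71 in depleted mice, a ratio of 1.76. The log2 fold change was 0.66 (SE 0.25, 95% interval 0.086 to 1.24) with limma p = 0.0290, adjusted p = 0.432 and exact permutation p = 0.2. It was 0.64 without A4, 0.41 without A5 and 0.94 without A6. Of its windows, 46.4% were shared with the pseudogene Hsp25-ps1. The 3 genes whose profiles over the 6 mice were most like that of Hspb1, by the root mean square distance of log2 values centred on their mean, were 0610009L18Rik (0.117), H2-M3 (0.120) and Trim12a (0.177).

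Hspd1 (chr1:55077835-55088243, minus strand), or Hsp60, which folds proteins in mitochondria, was at 78.0, 83.8 and 83.7 FPKM in the controls and 80.6, 87.3 and 92.7 FPKM in the depleted mice. A4 lay within the control range while A5 and A6 lay above it. The log2 fold change was 0.084 (SE 0.076, limma adjusted p = 0.717), and it was 0.14 without A4, 0.050 without A1 and 0.036 without A6. Its partner Hspe1, or Hsp10, which overlaps Hspd1 exons on the opposite strand, was at 91.3, 85.5 and 88.8 FPKM in the controls and 80.6, 91.2 and 127.8 FPKM in the depleted mice. Whether strand was used in the counting is not stated, so reads from both genes cannot be told apart where their exons overlap.

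A4 and the other depleted mice went apart in some members and not in others. In Hspa5, Hspa8, Hsph1, Hspd1 and Dnajb1, A4 was below the control mean while A5 and A6 were above it. In Hsp90aa1, Hsp90ab1, Hspb1 and Hspa1a, all 3 depleted mice lay on the same side of the control mean. A4 was the lowest of the 6 mice in 6 of 10 members (Hspa1a, Hspa1b, Hspa5, Hspa8, Hsph1 and Dnajb1) and the highest in 0, while it was the lowest in 28.2% and the highest in 26.9% of all genes tested. The median difference of the members from the control mean was -0.18 for A4, 0.17 for A5 and 0.16 for A6 on the log2 scale. In the controls it ran from -0.045 to 0.086. With A4 left out, both depleted mice were above every control in 6 members (Hspa5, Hspa8, Hsp90aa1, Hsp90ab1, Hspd1 and Hsph1), against 14.5% of all genes, and below in 1, Hspa1a, against 15.7%. Limma without A4 had 0 of 10 members at an adjusted p under 0.1 and 3 at an unadjusted p under 0.05 (Hspa5, Hsp90aa1 and Hsph1), against 13.2% of all genes. A4 was the mouse with the highest interferon genes, and no value here tests a link of that to the members.

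**Figure D3:**
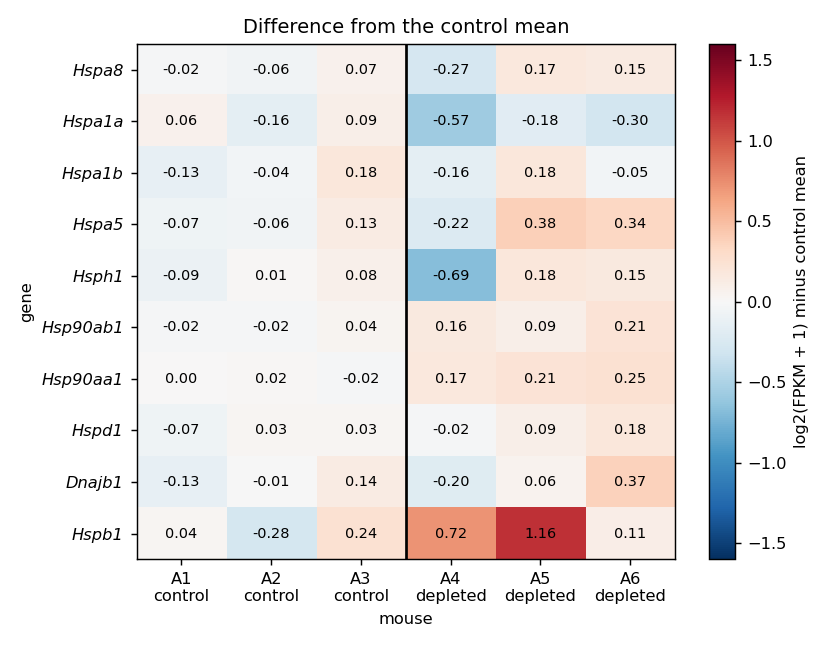
Difference of each member (rows) from its control mean in each mouse (columns), in log2(FPKM + 1). The column of A4 holds the lowest value of 6 members, with Hsph1 at -0.69 and Hspa1a at -0.57, while Hspb1 reaches 1.16 in A5.

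The other chaperones were read from lists set by name, and no gene of these lists had an adjusted p under 0.1 in limma. The chaperonins, ring-shaped folding chambers that include Hsp10 and the subunits of the cytosolic CCT complex, had the highest median of the chaperone lists, 0.15, and the means of all 9 tested genes were higher in depleted mice. The depleted mice all exceeded the controls in 6 of 9 (Tcp1, Cct2, Cct3, Cct6a, Cct7 and Cct8), against 8.21% of all genes, and 3 of 9 had an unadjusted limma p under 0.05, against 10.5% of all genes. Cct3 had the largest log2 fold change, at 67.3, 63.9 and 71.4 FPKM in the controls and 76.9, 75.3 and 79.6 FPKM in the depleted mice (0.19, SE 0.071, limma adjusted p = 0.418), and Cct4 the smallest, at 0.072. Hspe1 was lowest in A4, while the list as a whole was not: its median difference from the control mean was 0.16 for A4, 0.053 for A5 and 0.16 for A6. Cct6b was below the filter. The chaperonin genes beyond Cct3 and Cct4, and the J-domain genes beyond Dnajc2 and Dnajc24, were named after their values were seen.

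Of the other J-domain proteins, 38 of 41 passed the filter, and their median was 0.040 on the log2 scale. The depleted mice all exceeded the controls in 7 (Dnaja3, Dnajb4, Dnajb6, Dnajc2, Dnajc7, Dnajc13 and Dnajc28), against the same 8.21%, and 5 of 38 had an unadjusted limma p under 0.05, all higher, near the 10.5% of all genes. Dnajc2, a ribosome-bound member, had the largest value, at 15.8, 15.2 and 16.3 FPKM in the controls and 19.2, 19.3 and 25.1 FPKM in the depleted mice (0.40, SE 0.11, limma adjusted p = 0.378). Dnajc24 had the smallest, at -0.18, and its sign turned to 0.00091 without A4. Dnajb8 was listed at 0 in every mouse.

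In the other Hsp70 and Hsp110 genes, 0 of 10 had groups that did not overlap or an unadjusted limma p under 0.05. Their log2 fold changes ran from Hspa13 at 0.17 to Hspa12b at -0.18, with a median of 0.011. Over all genes tested, 8.21% were higher and 9.38% lower in every depleted mouse, and 10.5% had an unadjusted limma p under 0.05. These shares also stand beside the same counts in the next lists, and no count was tested against them. The other Hsp90 genes and co-chaperones had 0 of 14 in both counts and a median of -0.017, or 0.038 without A4. With A4 left out, both depleted mice were above every control in 5 of 14, against 14.5% of all genes, and below in 0, against 15.7%. Limma without A4 had 2 of 14 at an unadjusted p under 0.05, near the 13.2% of all genes. Fkbp5, a glucocorticoid-responsive co-chaperone of the steroid receptors, had the largest value there, 0.34, and it was at 33.0 FPKM in A4 against 15.6 to 18.7 FPKM in the other mice, so that it was 0.034 without A4. Fkbp4 had the smallest value, -0.20. The nucleotide exchange factors and partners of Hsp70 had 0 of 13 in both counts, from Sil1 at 0.18 to Hspbp1 at -0.17, with a median of 0.044. In the small heat shock proteins other than Hspb1, 6 of 9 passed the filter, with a median of -0.15. Hspb11, which is in the list by its symbol and is also known as Ift25, a transport protein of cilia, was higher in every depleted mouse (0.18). Hspb3 was lower (-0.47, or -0.18 without A4), at 2.94, 2.18 and 2.63 FPKM in the controls and 0.74, 2.14 and 2.15 FPKM in the depleted mice. Cryaa, Hspb7 and Hspb9 were below the filter.

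The list of heat shock transcription factors also holds Hsbp1, the gene of a protein that binds such factors, and 4 of its 6 genes were tested. Hsf1, which switches on the inducible members, was at 15.18, 15.80 and 14.97 FPKM in the controls and 11.9, 13.7 and 14.7 FPKM in the depleted mice, so that every depleted mouse was below every control (log2 fold change -0.18, SE 0.099, limma adjusted p = 0.550). Hsf2 was at 10.95, 10.69 and 9.76 FPKM in the controls and 14.9, 11.6 and 10.6 FPKM in the depleted mice (0.21, limma adjusted p = 0.593), and the groups overlapped. Without A4 the log2 fold change was -0.10 for Hsf1 and 0.080 for Hsf2. HSF1 is regulated largely as a protein, and the RNA of its gene does not show its activity.

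The ER stress genes had a median log2 fold change of -0.012 over 18 genes, and of 0.074 without A4. All 3 depleted mice exceeded all 3 controls in 1 of the 18, against 8.21% of all genes, and lay below them in 0, against 9.38%. An unadjusted limma p under 0.05 was found in 0, against 10.5% of all genes. With A4 left out, both depleted mice were above every control in 6 of the 18, against 14.5% of all genes, and below in 2, against 15.7%. Their median difference from the control mean was -0.17 for A4, 0.12 for A5 and 0.11 for A6, near the order of the mice seen for Hspa5. Not every gene of the list went this way. Ddit3 was at 60.5 FPKM in A4 against 26.9 to 32.9 FPKM in the other mice, and Atf6, P4hb and Edem1 were also highest in A4. Ddit3, P4hb and Edem1 were named after their values were seen. Atf6, a sensor of unfolded protein in the ER, had the largest value, 0.22, and Sdf2l1 the smallest, -0.28, which was -0.084 without A4. Immediate early genes, which neuronal activity induces, stood at a median difference of 0.54 in A4, 0.029 in A5 and -0.37 in A6, an order unlike that of the members, with log2 fold changes from 0.82 in Egr2 to -0.21 in Egr4. Without A4, Egr2 was at 0.094 and Egr4 at -0.58.

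**Figure D4:**
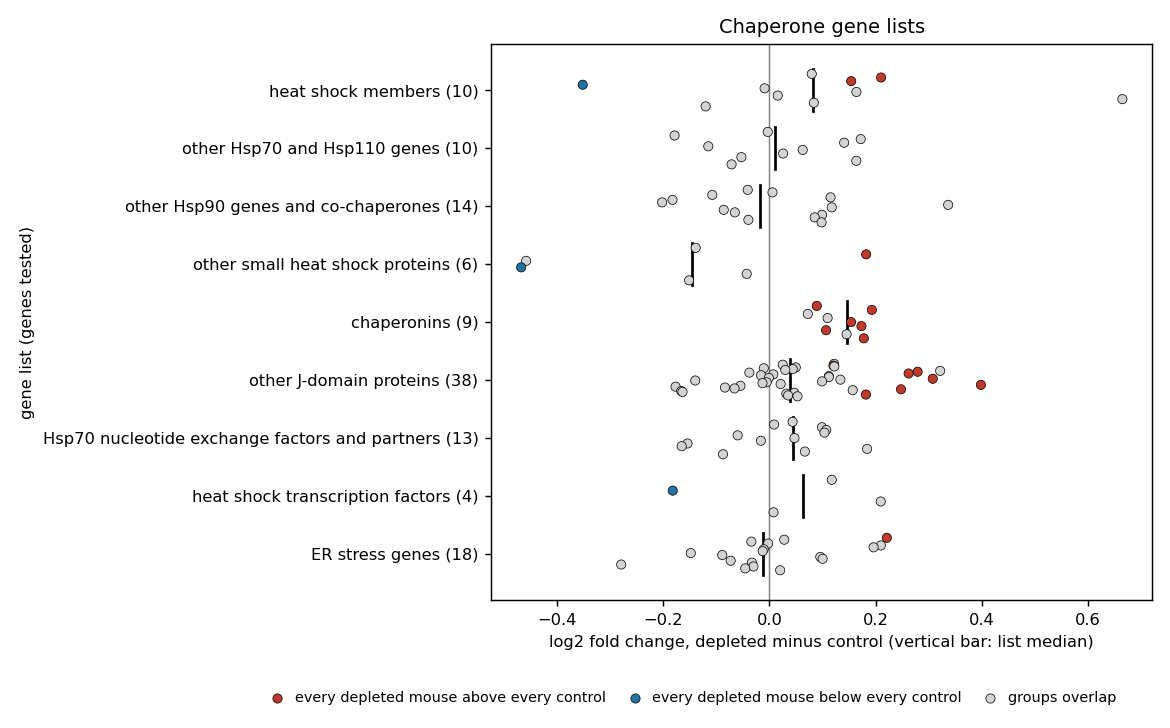
Log2 fold change (depleted minus control) of each tested gene, in rows by chaperone list, with the list median as a vertical bar. Colours mark genes in which every depleted mouse is above, or below, every control mouse. The chaperonins lie to the right of 0, with 6 of 9 marked as above.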

How the data were processed

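RNA from cortex of 3 control and 3 depleted mice was sequenced with poly(A) selection and 75 bp paired-end reads, aligned with TopHat and quantified with RSEM on known transcripts, and the authors deposited TMM-normalized FPKM, 1 value for each gene in a mouse. The submitters' processing notes also name DESeq and mm9; versions and annotation are not given in the sources used here. The study tested raw counts with DESeq, and counts were not used here. The values were taken to log2(FPKM + 1) for all genes averaging 0.5 FPKM or more, and limma 3.58.1 (R 4.3.3; lmFit, eBayes with trend) compared depleted with control mice, adjusted over all genes at a threshold of 0.1, and per gene by an exact two-sided permutation test. The members and lists were chosen with earlier results of these data known. The genes named were the members, Hsf1 and Hsf2, the tested gene with the largest and the one with the smallest log2 fold change in each list of chaperones, ER stress genes and immediate early genes, and the 3 most like the widest member; others are marked in the text. Positions and shared windows were taken by symbol from GENCODE M21 on GRCm38, and promoters from RefSeq. Fragments were estimated from the spacing of low values, so counting errors are approximate. The mice are separate animals with 1 library each, and the p-values set the group difference against the spread between mice. For that spread, limma also draws on all genes tested. As alternatives, the filter was dropped or set to 1 FPKM, the pseudocount was set to 0.1 and the threshold to 0.05, values were rescaled (TPM, median of ratios, quantile), eBayes was run untrended, limma array weights were used, and mice were dropped singly, with A3 and A4 also dropped together. The fit was tested on simulated data. Python 3.11.15 with numpy 2.4.6, pandas 2.3.3 and matplotlib 3.10.9 was used for the other steps. The summed level of the microglia markers is not reported here.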

Additional observations from a re-analysis of the deposited data

How the results depend on the processing

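No member passed the adjusted threshold under any alternative run, and the lowest adjusted p of a member was 0.187 in limma. Of 150 member values under the alternatives, 137 kept their direction and 13 in 4 members did not. Array weights turned Hspa1b to 0.060 and Hsph1 to 0.041, and quantile normalization turned Hspa8 to -0.017. With mice left out, Hspa1b ran from -0.10 to 0.16 (0.079 without A3, 0.067 without A4, 0.0096 without A6), Hspa8 from -0.059 without A5 to 0.19 (-0.012 without A2, -0.050 without A6), Hsph1 from -0.27 to 0.20 (0.16 without A4) and Dnajb1 from -0.067 without A6 to 0.29. Likewise Dnajc24 ran from -0.32 to 0.12 (0.00091 without A4) and Egr4 from -0.62 to 0.014 without A6. The genes called over all genes, 4 in the fit as reported, were 2 without the trend, 20 with array weights, 7 without A3 and A4, and 2 to 29 with 1 mouse left out (2 without A1, 22 without A4, 29 without A5, 8 without A6). The causes were not tested. Members at an unadjusted p under 0.05, 4 as reported, were between 1 and 3 under some alternatives. No paired analysis was possible because no litter or other pairing of the mice was given. Scaling moved the median of all genes by at most 0.0039. Counting error limited Hspa1a and Hspa1b, at up to 9.76% of a value.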
